A study of Mus musculus with 4 samples.

Results

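The 10 genes described here encode the light chains of sarcomeric myosin, the kinase that phosphorylates one class of them, and the proteins that bind myosin along the thick filament. They were chosen by name, with earlier results of these data known. The essential light chains are Myl1, Myl3, Myl6b and Myl4, and the regulatory light chains are Mylpf and Myl2. The others are the skeletal light chain kinase Mylk2 and the binding proteins Mybpc2, Mybpc1 and Mybph. All 10 were found among 32868 gene names, each with 1 row per library. RNA came from a fast leg muscle, the tibialis anterior, of C57BL/6 mice at postnatal day 21, in 2 libraries per group. The Het group had the genotype Nf1flox/+ with Myf5+ and the Nf1-KO group Nf1flox/flox with Myf5+. In crosses of this kind Myf5+ stands for a Cre recombinase at Myf5, active in muscle precursors, so the Het animals also carry the driver and 1 floxed allele, and cells outside that lineage keep Nf1 in both groups. The labels do not say whether a library is 1 animal or a pool, nor the sex, so p-values measure the spread between these libraries, which may be technical.

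A myosin molecule has a pair of heavy chains, which hold the motor, and each heavy chain carries an essential and a regulatory light chain on its lever arm. Fast and slow fibres use different isoforms: Myl1 and Mylpf are the main light chains of fast fibres, while Myl3 and Myl2 are those of slow fibres and of the heart ventricle. Calcium-bound calmodulin activates the light chain kinase, which phosphorylates the regulatory chain and raises force at low calcium. Myosin-binding protein C holds myosin heads near the filament backbone and sets how readily they engage actin.

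Nf1, which encodes the Ras-inactivating protein neurofibromin, was at 1.09 and 1.01 RPKM in Het and at 0.89 and 0.85 RPKM in Nf1-KO. RPKM is a read count divided by gene length and library depth. Its log2 fold change was -0.18 (limma adjusted p 0.041), and leaving out any 1 library took the adjusted p to between 0.062 and 0.18. For Nf1 the authors' deposited table gave a larger log2 fold change of -0.38 ± 0.11 (SE, adjusted p 0.0026). The limma value was -0.33 (limma adjusted p 0.045) when 0.1 RPKM in place of 1 RPKM was added before taking logs. Estimated depth was 36500000 to 58100000 reads per library. Skeletal muscle fibre markers were abundant in all libraries, with a summed level of 5 genes (Acta1, Ckm, Des, Ttn and Ryr1) of 23120 to 23310 RPKM in Het and 19410 to 19740 RPKM in Nf1-KO. Of these 5 markers, 4 were called lower, with Nf1-KO means at 68.5% to 94.8% of the Het means, and Des was called higher, at 120.5%.

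Of the 10 genes, 4 were called lower and 4 higher in Nf1-KO, where 25.4% of the 10690 tested genes were called lower, 24.9% higher and 50.3% in all. Without scaling between libraries the share of higher genes among all called rose from 49.5% to 66.6%, while among the 10 genes 5 were higher and 4 lower. A gene was called at a limma adjusted p under 0.05 over all tested genes. The fast isoforms Myl1, Mylpf and Mybpc2 and the kinase Mylk2 fell. The slow isoforms Myl3, Myl2 and Mybpc1 and the developmental and atrial chain Myl4 rose. The slow chain Myl6b and the binding protein Mybph were not called. The median log2 fold change was -0.96 over the 3 fast genes and 0.22 over the 4 slow genes, against 0.00 over all tested genes. In all 10 genes the deposited values of the groups did not overlap, which was so for 77.3% of tested genes. Together the 10 genes held 2.57% to 2.60% of the summed RPKM of the Het libraries and 1.78% to 1.79% of that of the Nf1-KO libraries. In this bulk tissue, fewer fibres of a type and less RNA per fibre cannot be told apart.

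Sequence upstream of the RefSeq transcript start is shown for 3 genes as examples, a fast light chain (Mylpf) and a fast binding protein (Mybpc2) that fell and a slow light chain (Myl3) that rose, picked with their values and motifs known. The sequences are from RefSeq on GRCm38.p6, run 5′ to 3′ on the gene's strand, and end at the base before the RefSeq start or, for Myl3, where the window first meets a GENCODE exon. No printed stretch holds a GENCODE exon. Those of Mylpf and Myl3 lie inside the annotated genes, whose GENCODE spans begin further upstream, so they are intronic to the longer gene models. They span chr7:127211358-127211607 (plus strand) for Mylpf, chr7:44524670-44524919 (minus strand) for Mybpc2 and chr9:110763428-110763645 (plus strand) for Myl3. Capitals mark E-boxes (CANNTG, the core bound by myogenic factors such as MyoD), MCAT elements (CATTCC, read on either strand, the core bound by TEAD factors) and the CArG box, which serum response factor binds.
Mylpf: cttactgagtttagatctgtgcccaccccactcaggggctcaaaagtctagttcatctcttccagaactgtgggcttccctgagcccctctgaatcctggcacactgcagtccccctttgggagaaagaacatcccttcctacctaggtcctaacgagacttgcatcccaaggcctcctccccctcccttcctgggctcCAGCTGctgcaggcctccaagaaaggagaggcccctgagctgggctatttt
Mybpc2: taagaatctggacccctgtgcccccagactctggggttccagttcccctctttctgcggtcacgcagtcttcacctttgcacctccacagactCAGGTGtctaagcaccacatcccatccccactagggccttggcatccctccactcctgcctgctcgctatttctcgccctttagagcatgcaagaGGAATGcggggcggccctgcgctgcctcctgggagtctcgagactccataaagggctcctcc
Myl3: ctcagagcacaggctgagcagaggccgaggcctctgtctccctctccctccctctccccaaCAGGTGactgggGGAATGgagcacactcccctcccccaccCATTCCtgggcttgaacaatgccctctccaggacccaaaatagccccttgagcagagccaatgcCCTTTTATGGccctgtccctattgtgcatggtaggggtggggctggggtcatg

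The Mylpf stretch holds 1 E-box, 51 bases before the start. The Mybpc2 stretch holds 1 E-box at 157 bases and 1 MCAT element at 62 bases before the start. The Myl3 stretch holds 1 E-box at 189 bases, 2 MCAT elements at 177 and 149 bases and 1 CArG box at 85 bases. There were 10 upstream windows of 250 bases for 9 of the 10 genes, 2 of them for Myl2 (Mylk2 has none in the table used). Of these windows 9 had an E-box, 4 an MCAT element (Myl1, Myl3, Mybpc2 and Mybph), 1 a CArG box and 0 a MEF2 element, searched on both strands. The windows of Myl1, Myl4, Mybpc1 and Myl3 hold 103, 208, 188 and 32 bases of GENCODE exons. Both Myl2 windows lie away from the GENCODE gene: they end at 122092723 and 122093188 on chromosome 5, and Myl2 begins at 122100951. Of 32851 windows of all genes, 66.2% held an E-box, 12.6% an MCAT element, 1.5% a CArG box and 2.9% a MEF2 element. An MCAT element stood upstream of genes that fell, rose and were not called, so the letters did not separate the directions. No E-box overlapped an MCAT element in the printed stretches. These matches describe letters in a window and are not evidence of binding.

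The essential light chains moved in opposite directions. Myl1 (chromosome 1, 66924295 to 66945404, GRCm38, minus strand), which gives the fast essential chains MLC1f and MLC3f from separate start sites, was at 5467 and 5439 RPKM in Het and at 2998 and 2974 RPKM in Nf1-KO. The replicates lay close together and the groups far apart, with the Nf1-KO mean at 54.8% of the Het mean. Its log2 fold change was -0.96 ± 0.014 (SE here and below), at a limma adjusted p of 2.8e-07. The gene-level value pools both start sites, so their proportion was not analysed here. Of the 50-base stretches of its longest transcript, 23.4% also occur in the pseudogene Mylf-ps, and how shared reads were counted is not stated.

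Myl3 (chromosome 9, 110741861 to 110769798, plus strand), the slow and ventricular essential chain, was 89.7 and 89.2 RPKM in Het and 105.6 and 108.9 RPKM in Nf1-KO. This rise was smaller than the fall of Myl1, at a log2 fold change of 0.17 ± 0.023 (limma adjusted p 0.0015). An exon of a long Myl3 transcript overlaps Pth1r, whose level, far below that of Myl3, was 0.23 to 0.25 RPKM in Het and 0.78 to 0.86 RPKM in Nf1-KO. Myl4 (chromosome 11, 104550663 to 104595753, plus strand), the essential chain of embryonic muscle and of the atrium, was 5.32 and 4.85 RPKM in Het and 6.83 and 6.84 RPKM in Nf1-KO. Its log2 fold change was 0.28 ± 0.051 (limma adjusted p 0.0045), while the authors' deposited table gave 0.32 ± 0.18 (adjusted p 0.17). Myl6b (chromosome 10, 128494157 to 128498685, minus strand), an essential chain of slow skeletal muscle that other tissues also express, was 5.86 and 5.36 RPKM in Het and 6.63 and 6.40 RPKM in Nf1-KO. Both Nf1-KO values were above both Het values, but the gene was not called (log2 fold change 0.10, 95% interval -0.02 to 0.23, limma adjusted p 0.14). Without scaling between libraries it was called, at 0.19 (limma adjusted p 0.026).

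The regulatory chains also split by type. Mylpf (chromosome 7, 127208890 to 127214298, plus strand), the fast regulatory chain, was 6273 and 6277 RPKM in Het and 4938 and 5063 RPKM in Nf1-KO, and was the most abundant of the 10 genes in each library. As deposited, the Nf1-KO mean was 79.7% of the Het mean. The log2 fold change was -0.42 ± 0.016 (limma adjusted p 6.0e-06) after scaling between libraries and -0.33 without it. Myl2 (chromosome 5, 122100951 to 122113472, plus strand), the slow and ventricular regulatory chain, was 12.01 and 11.78 RPKM in Het and 16.0 and 15.3 RPKM in Nf1-KO. It stayed low beside Mylpf in each library. Its log2 fold change was 0.28 ± 0.038 (limma adjusted p 0.0013), but the authors' deposited table, with a log2 fold change of 0.29, gave an adjusted p of 0.105. A Myl2 exon overlaps Ccdc63, which was listed at 0 to 0.02 RPKM.

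**Figure D1:**
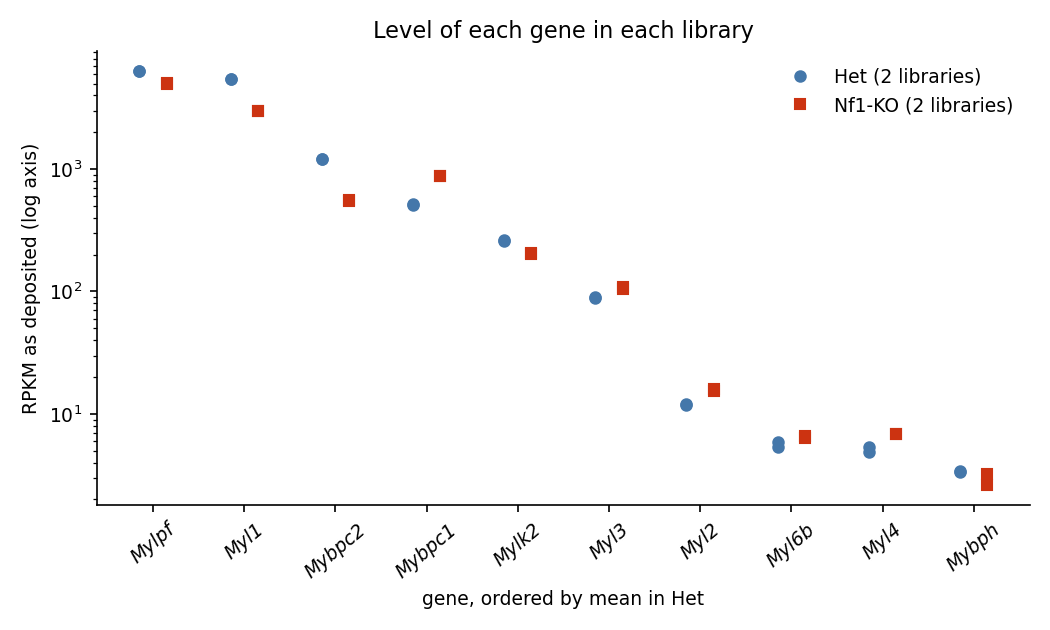
RPKM as deposited of the 10 genes in each of the 4 libraries, on a log axis, with genes ordered by their mean in Het; circles are Het and squares Nf1-KO libraries. Levels span from 6275 RPKM for Mylpf to 3.38 RPKM for Mybph in the Het means, and Mybpc1 and Mybpc2 exchange places between the groups.

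The kinase fell about as much as the regulatory chain it acts on. Mylk2 (chromosome 2, 152911352 to 152923068, plus strand), the light chain kinase of skeletal muscle, was 260.6 and 261.2 RPKM in Het and 205.7 and 201.8 RPKM in Nf1-KO. The fold change on the log2 scale was -0.45 ± 0.020 (limma adjusted p 1.1e-05). Per 100 RPKM of regulatory chains (Mylpf and Myl2 summed), Mylk2 stood at 4.15 in each Het library and at 4.15 and 3.97 in Nf1-KO, with overlapping groups (exact permutation p = 0.667). Acta1, the skeletal muscle actin of the thin filament, stood at 78.2% of its Het mean (log2 fold change -0.45, limma adjusted p 4.1e-06), beside 79.7% for Mylpf and 78.1% for Mylk2. The other fibre markers differed from this: Ttn stood at 68.5% of its Het mean, Ryr1 at 88%, Ckm at 94.8% and Des at 120.5%. The part of a fall shared with other fibre genes in the values of Mylpf and Mylk2 was not tested.

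Among the binding proteins the isoforms exchanged rank. Mybpc2 (chromosome 7, 44501699 to 44524656, minus strand), the fast isoform of myosin-binding protein C, was 1201 and 1206 RPKM in Het and 557.9 and 552.0 RPKM in Nf1-KO. The Nf1-KO mean was 46.1% of the Het mean, the furthest fall among the 10 genes, and the log2 fold change was -1.21 ± 0.016 (limma adjusted p 2.8e-07). Mybpc1 (chromosome 10, 88518279 to 88605152, minus strand), the slow isoform, which fast fibres also express, was 508.4 and 515.8 RPKM in Het and 880.2 and 871.1 RPKM in Nf1-KO. The Nf1-KO mean was 171% of the Het mean, and the log2 fold change was 0.68 ± 0.017 (limma adjusted p 1.4e-06). Mybph (chromosome 1, 134193448 to 134201232, plus strand), a shorter relative of myosin-binding protein C, was 3.36 and 3.39 RPKM in Het and 2.64 and 3.25 RPKM in Nf1-KO. Most of its spread lay between the Nf1-KO libraries, and it was not called (log2 fold change -0.23, 95% interval -0.41 to -0.04, limma adjusted p 0.052). Without the second Nf1-KO library it was called, at -0.33 (limma adjusted p 0.012), and without the first it stood at -0.11 (0.26). Its exons overlap Adora1, at 0.02 to 0.06 RPKM, while those of Mybpc1, Mybpc2 and Myl4 overlap 1 unnamed gene model each.

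**Figure D2:**
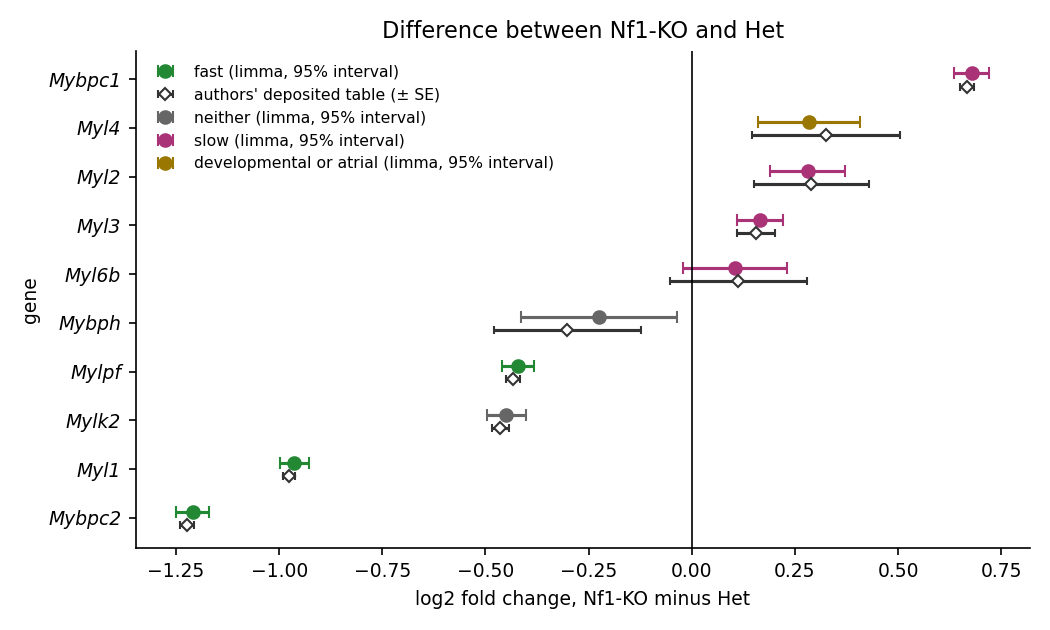
Log2 fold change of each gene, Nf1-KO minus Het, from limma (filled circles with 95% intervals, coloured by fibre type) and from the authors' deposited table (open diamonds with 1 standard error on each side). The 3 fast genes lie to the left of 0 and the 4 slow genes to the right, and the wide errors of the authors' table belong to the low genes Myl2, Myl4, Myl6b and Mybph.

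The authors' deposited table gave the same direction for all 10 genes and called 6 of them at an adjusted p under 0.05, where it called 31.6% of its 13985 rows. The 4 that it did not call were Myl2, Myl4, Myl6b and Mybph. Fewer reads stood behind these 4: their mean normalised counts in the authors' deposited table were 412, 253, 294.5 and 275, against 4178 for Myl3 and 253473 for Myl1. The standard errors there were 0.14 to 0.18 for these 4 genes and 0.017 for Mylpf. The calls of Myl2 and Myl4 therefore rest on the limma fit alone.

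Isoform shares were computed inside each library, where scaling between libraries cancels. Mybpc2 made up 70.2% and 70.0% of the summed RPKM of Mybpc1 and Mybpc2 in Het, against 38.8% in both Nf1-KO libraries. The predominant myosin-binding protein C transcript was thus the fast one in Het and the slow one in Nf1-KO, at a ratio of Mybpc2 to Mybpc1 of 2.35 ± 0.016 and 0.634 ± 0.00012 (SD, n = 2). Myl3 rose from 1.61% of the sum of Myl1 and Myl3 in each Het library to 3.40% and 3.53% in the Nf1-KO libraries. Myl2 was 0.191% and 0.187% of the sum of Mylpf and Myl2 in Het and 0.324% and 0.301% in Nf1-KO. The fast isoform therefore remained over 96% of both light chain pairs in every library, unlike the binding protein pair. For each of the 3 shares the groups did not overlap, and the exact two-sided permutation test gave p = 0.33, the lowest that 2 against 2 libraries allow, also after Benjamini-Hochberg adjustment over the 3.

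**Figure D3:**
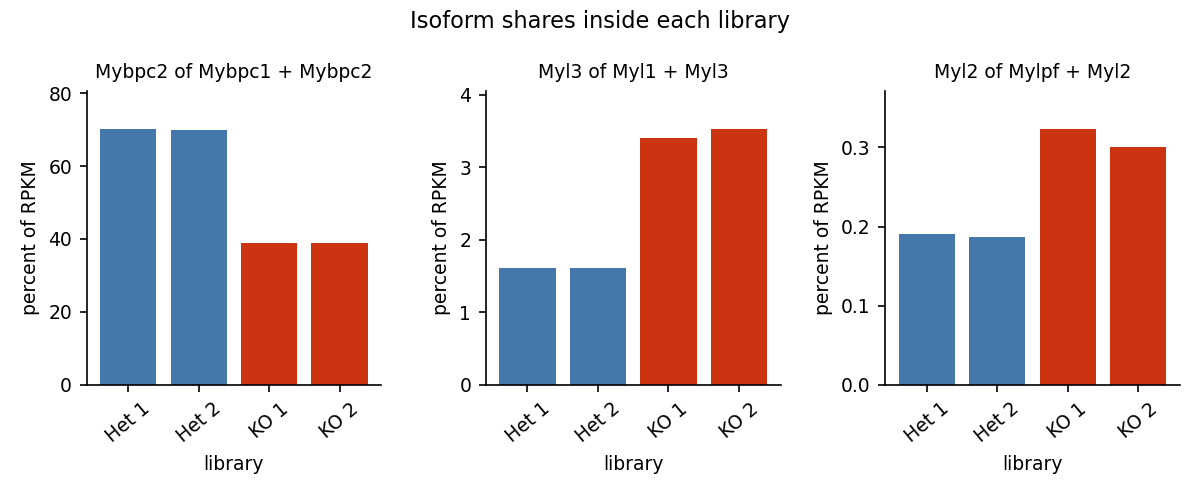
Share of RPKM inside each library, in percent, with 1 bar per library: Mybpc2 in the sum of Mybpc1 and Mybpc2 (left), Myl3 in the sum of Myl1 and Myl3 (middle) and Myl2 in the sum of Mylpf and Myl2 (right). Each panel has its own axis from 0, and the left panel falls from about 70% to 38.8% while the slow light chains rise from 1.61% and about 0.19%.

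The fast light chains did not fall in step with each other. The ratio of Myl1 to Mylpf was 0.872 and 0.866 in Het and 0.607 and 0.587 in Nf1-KO. Summed over isoforms, essential chains went from 5553 ± 21.3 to 3107 ± 15.02 RPKM (SD, n = 2), or 55.9% of Het, and regulatory chains from 6287 ± 2.98 to 5016 ± 87.8 RPKM, or 79.8%. The sum of Mybpc1 and Mybpc2 went from 1716 ± 9.13 to 1431 ± 10.6 RPKM, or 83.4%. For the heavy chains Myh4, Myh1, Myh2 and Myh7, whose products carry these light chains, the sum went from 9750 ± 255 to 7988 ± 121 RPKM, or 81.9%. Regulatory chains per heavy chain overlapped between the groups, at 0.657 and 0.633 in Het and 0.614 and 0.643 in Nf1-KO. Essential chains per heavy chain did not, at 0.582 and 0.558 in Het and 0.386 and 0.392 in Nf1-KO. Myh1 and Myh2 were called higher, at log2 fold changes of 0.52 and 0.77 (limma adjusted p 1.0e-05 and 5.4e-06). The slow heavy chain Myh7 did not rise with the slow light chains. It was 1.595 RPKM in Het and 1.415 RPKM in Nf1-KO and was not called (log2 fold change -0.16, limma adjusted p 0.066). Myh4, the fastest heavy chain, went from 70.7% to 43.4% of the 4 heavy chains. The levels of Myl1 and Mybpc2 relative to Myh4 moved less, from 0.792 to 0.861 and from 0.175 to 0.160. These ratios compare RPKM, which is per length, and depend on the gene lengths the authors used. With 2 libraries a group, the exact permutation test gave p = 0.33 for each ratio and sum whose groups were apart and 0.667 for regulatory chains per heavy chain.

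**Figure D4:**
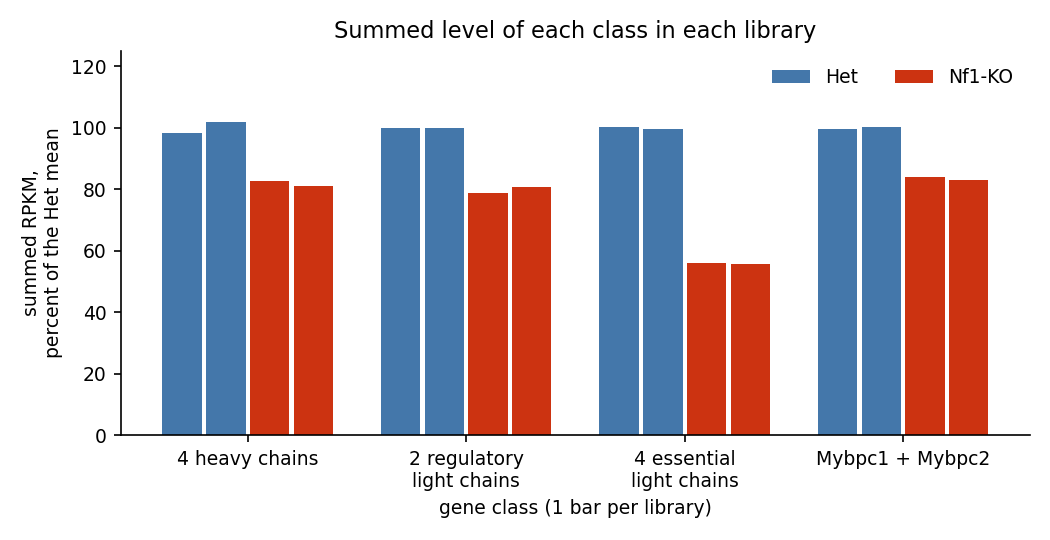
Summed RPKM of 4 gene classes in each library, as percent of the class's Het mean, with 2 Het bars and 2 Nf1-KO bars per class. The essential light chains stand at 55.9% in Nf1-KO, while heavy chains, regulatory chains and the binding proteins stand at 79.8% to 83.4%.

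The order of the levels was the same in both groups for Mylpf and Myl1 at the top and for Mylk2, Myl3 and Myl2 below the binding proteins C. Among all gene names, Mybpc2 went from rank 36 in Het to rank 79 in Nf1-KO and Mybpc1 from rank 70 to rank 49. At the low end, Myl6b was above Myl4 in both Het libraries and below it in both Nf1-KO libraries. In Het these neighbours, at 5.36 to 5.86 and 4.85 to 5.32 RPKM, nearly touched. Mybph was the lowest of the 10 in every library.

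Other genes of the thick filament and of light chain phosphorylation were read from a list of 19. Of the 15 that could be tested, 9 were called higher and 6 lower (4 lower without scaling between libraries), where 24.9% of all tested genes were called higher, 25.4% lower and 50.3% in all. The median log2 fold change of the 15 was 0.22, against 0.00 over all tested genes. Mylk4, another kinase of the light chain kinase family, fell from 302.1 and 305.6 RPKM to 121.1 and 116.9 RPKM, a log2 fold change of -1.44 (limma adjusted p 3.8e-07), further than Mylk2. Calm3, which encodes calmodulin, the activator of the kinase, went from 111.4 and 108.3 RPKM to 73.6 and 70.9 RPKM, a log2 fold change of -0.69 (limma adjusted p 8.3e-06). Calm2, named after its values were seen, showed 63.6 ± 1.17 and 63.5 ± 2.39 RPKM as deposited, with overlapping groups. Its log2 fold change of -0.10 (limma adjusted p 0.042) became -0.003 (0.94) without scaling between libraries. All 5 tested genes of this set other than Mylk4 that encode kinases or phosphatase subunits rose, led by Ppp1r12b, a targeting subunit of myosin phosphatase, from 23.7 and 23.7 RPKM to 34.8 and 34.6 RPKM (log2 fold change 0.44, limma adjusted p 3.9e-05).

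Among the light chains outside the 10, 4 of 5 tested genes were called higher and 1 lower. Myl10, annotated as a regulatory light chain, rose from 2.56 and 2.71 RPKM to 9.68 and 9.97 RPKM, a log2 fold change of 1.497 (limma adjusted p 2.7e-06). Myl12a, a regulatory chain of non-muscle myosin, rose from 98.4 and 95.8 RPKM to 137.0 and 136.9 RPKM, a log2 fold change of 0.40 (limma adjusted p 2.9e-05). The 1 that fell was Myl6, the essential chain of non-muscle and smooth muscle myosin, named after its values were seen, from 27.1 and 27.5 RPKM to 24.5 RPKM in both Nf1-KO libraries (log2 fold change -0.24, limma adjusted p 0.00061). The atrial regulatory chain Myl7 and the binding protein Mybphl were listed at 0 in all 4 libraries, and the cardiac binding protein Mybpc3 at 0 to 0.01 RPKM. The myosin chaperone genes Unc45b and Smyd1 were both called lower, with log2 fold changes of -0.31 and -0.15. Smyd1, also named after its values were seen, lost its call without scaling between libraries, at -0.05 with a limma adjusted p of 0.063.

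**Figure D5:**
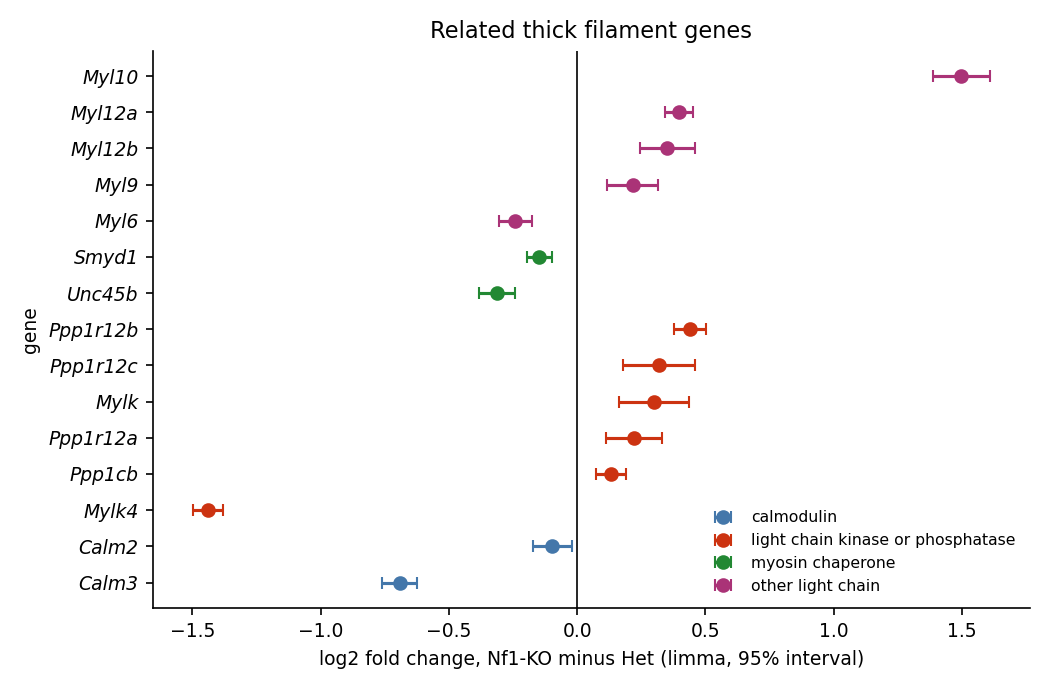
Log2 fold change, Nf1-KO minus Het, with 95% intervals from limma, for the 15 tested genes of the thick filament and light chain phosphorylation list, coloured by class. Mylk4 at -1.44 and Myl10 at 1.497 lie furthest from 0, and 9 of the 15 genes lie to the right of 0.

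Myl2, Myl3 and Myl4 are also heart genes, so cardiomyocyte markers were read beside them. Their summed level over 5 genes was 2.55 to 2.63 RPKM in Het and 7.16 to 7.75 RPKM in Nf1-KO. Of these markers, Tnni3, Nppa and Ryr2 lay between 0.01 and 0.24 RPKM in every library and were not tested. Nppa and Ryr2 were higher in Nf1-KO, while Tnni3 was lower. Tnni3 was at 0.07 and 0.08 RPKM in Het and at 0.03 and 0.02 RPKM in Nf1-KO. Both tested markers were called higher. Tnnt2, which developing skeletal muscle also expresses, went from 1.43 ± 0.050 to 4.99 ± 0.34 RPKM (SD, n = 2, limma adjusted p 1.7e-05). Myh6 went from 1.00 ± 0.014 to 2.21 ± 0.11 RPKM (SD, n = 2, limma adjusted p 0.00024). Satellite cell and myoblast markers summed to 16.6 to 16.8 RPKM in Het and 21.9 to 23.7 RPKM in Nf1-KO, with 1 of 4 tested genes called, Myog, at 1.08 ± 0.22 and 4.86 ± 0.47 RPKM. Summed levels of 5 immune cell markers were 8.59 to 8.86 RPKM in Het and 27.4 to 27.6 RPKM in Nf1-KO. Most of this sum was Lyz2, at 7.47 and 7.38 RPKM in Het and 24.35 and 24.62 RPKM in Nf1-KO, and Adgre1 was listed at 0. Those of 5 Schwann cell markers were 14.2 to 14.6 RPKM and 31.5 to 33.1 RPKM. Of the tested immune and Schwann cell genes 3 of 3 and 5 of 5 were called higher, where 24.9% of all tested genes were. Smooth muscle markers, beside the non-muscle chain Myl12a, summed to 47.6 to 48.8 RPKM and 57.2 to 57.6 RPKM, with 2 of 4 tested genes higher and 1 lower. For endothelial cells the sums were 69.7 to 70.0 RPKM and 74.8 to 75.7 RPKM (2 of 5 higher, 1 lower). For adipocytes they were 2.42 to 2.67 RPKM and 2.68 to 2.89 RPKM (1 of 2 higher). All these sums are of RPKM as deposited, while the calls come from values scaled between libraries. The endothelial marker Cdh5 stood at 106.9% of its Het mean as deposited but at a log2 fold change of 0.001 after scaling. The part of these other cell types in the differences of the light chain genes was not tested.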

How the data were processed

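RNA of mouse tibialis anterior was measured in 2 Het and 2 Nf1-KO libraries made with a TruSeq RNA version 2 kit, per the labels' protocols. STAR 2.4.2a, DESeq2 and the build mm9 are named in the submitters' processing notes; the annotation, the gene lengths and the use of strand are not given in the sources used here. The authors deposited 1 RPKM value per gene and library for 34682 rows. The unit is named nowhere and was read from the values: they summed to 532315 to 547144 per library, and over 8492 genes the authors' mean normalised count per RPKM rose with transcript length at a log-log slope of 0.957. Per the file headers, the authors' comparison table has the layout of DESeq2 and holds a signal value (mean normalised count), a log2 fold change, the standard error and test score, and p-values. Its direction, Nf1-KO minus Het, was read from the libraries.

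The 33 rows with a number for a name were left out, and of rows marked as copies the one with the highest mean was kept. The 10690 genes that reached 0.5 RPKM in 2 or more libraries were scaled by a trimmed mean of log ratios without weights (factors 0.968, 0.967, 1.03 and 1.03). Values of log2(RPKM + 1) were then tested two-sided in limma 3.58.1 (R 4.3.3) with a variance trend and Benjamini-Hochberg adjustment. Fold changes are on that scale, which understates changes of low genes. Means, SD, sums, ratios and percentages of Het means are of RPKM as deposited. They can therefore differ from fold changes of scaled values, also for abundant genes. Scaling moved the median log2 fold change of tested genes from 0.07 to 0.00. Depth was estimated from the steps of low values in transcripts under 400 bases, searched from 25000000 to 80000000 reads in steps of 100000. No count test was run on it. The test was also run on simulated libraries with little spread beyond read counting. That run does not show how the test behaves under spread between animals.

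Positions are from GENCODE M21 (GRCm38), not the authors' build. All 10 genes were named, and of the related list up to 3 called genes in each direction with the lowest adjusted p, and those listed at 0; 1 gene of that list is not reported here. The genes and lists were chosen with earlier results of these data known. Alternatives were the pseudocount, filter, scaling, variance trend, copies, threshold, replicate block, leaving out each library, and the authors' table.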

Additional observations from a re-analysis of the deposited data

How the results depend on the processing

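Of 461 values under 15 alternative settings, 434 stayed on their side of 0 and of the threshold, or within 1.5 times for counts and 1 SD for shares, 19 lost a call, 6 gained one, 2 moved and 0 reversed. The values cover the 10 genes, Nf1, the heavy chains Myh1, Myh2, Myh4 and Myh7, the called related genes, and counts and shares. The related genes were included because they had a call, so they could lose it but not gain one. Myl1, Mylpf, Mylk2, Mybpc1, Mybpc2 and Myl3 kept their calls in each setting. Read from the authors' deposited table, Myl2 (0.29, adjusted p 0.105) and Myl4 (0.32, adjusted p 0.17) were not called, which leaves 2 of the 10 genes higher in place of 4. Myl6b gained a call with unscaled values (0.19). Mybph gained one when every library had to reach 1 RPKM (-0.22, limma adjusted p 0.045) and with the replicate number as a block (-0.23, 0.035), and leaving out 1 library moved it between -0.33 and -0.11. With Myl4 and Myl6b in the denominator, the share of Myl1 fell by 2.08 percentage points in place of 1.85. The cause of these changes was not tested.

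The labels do not say whether replicate numbers pair the libraries, and 2 libraries a group cannot settle it. Libraries of the same number deviated from their group means with a correlation of -0.018 over genes. The replicate block changed no call among the 10 genes besides that of Mybph. Nf1 lost its call with no filter (limma adjusted p 0.073), unscaled values (0.094), the block (0.054) and each library left out. Mybph, Myl4, Myl6b and Myl2 had the lowest mean normalised counts of the 10 genes in the authors' deposited table, and the part of depth in their calls was not tested.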

Other observations

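The genes whose centred log2 values over the 4 libraries lay nearest to those of Mybpc2 and Mybpc1 were looked up among 4817 other genes of at least 5 RPKM. Nearest to Mybpc2 were Hr, a nuclear corepressor, Cish, an inhibitor of cytokine signalling, and Car3, a carbonic anhydrase of muscle, with root mean square differences of 0.0118, 0.0138 and 0.0205. Car3 went from 946 ± 5.88 to 449 ± 2.93 RPKM (SD, n = 2) and Cish from 24.3 ± 0.36 to 10.6 ± 0.092 RPKM. Nearest to Mybpc1 were Etfdh, which passes electrons from fatty acid oxidation to the respiratory chain, Oxct1, the first enzyme of ketone body use, and Rsph3b, with root mean square differences of 0.0061, 0.0075 and 0.0098. Oxct1 went from 116 ± 0.42 to 201 ± 0.67 RPKM and Etfdh from 28.7 ± 0.31 to 50.04 ± 0.64 RPKM. With 4 libraries in 2 groups, such likeness reflects a similar difference between the groups and close replicates.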
